A study of Chlamydomonas reinhardtii with 34 samples.

Results

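The Calvin-Benson cycle enzymes are described here as 10 loci of the green alga Chlamydomonas reinhardtii, taken from a supplied list that named each locus and its enzyme. All 10 were found among the 17301 loci of the deposited expression table by matching the locus identifier, and all 10 entered the tests, which covered 14513 loci with a mean level of at least 1 RPKM (reads divided by model length in kilobases and by library depth). The list holds Cre02.g120100 and Cre02.g120150 (Rubisco small subunits), Cre04.g229300 (Rubisco activase), Cre12.g554800 (phosphoribulokinase), Cre01.g010900 (GAP3), Cre05.g234550 (aldolase FBA3), Cre12.g510650 (FBP1), Cre03.g185550 (SBP1), Cre02.g080200 (transketolase) and Cre12.g511900 (RPE1). The rule that names them uses no measured value, but the loci were chosen with earlier results of these data known.

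The cycle fixes carbon dioxide in the chloroplast. Rubisco adds it to ribulose bisphosphate, glyceraldehyde 3-phosphate dehydrogenase reduces the product with ATP and NADPH from the light reactions, and aldolase, the bisphosphatases, transketolase, ribulose phosphate epimerase and phosphoribulokinase rebuild the acceptor. Sugar phosphates leaving the cycle feed starch in the chloroplast, and algae deprived of nitrogen slow photosynthesis while storing starch and oil.

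RNA was sequenced from 34 libraries, 17 of the mutant sta6 (CC-4348) and 17 of the strain CC-4349. The sta6 strain lacks starch because it lost the small subunit of ADP-glucose pyrophosphorylase, and CC-4349 served as its comparison strain. Each strain is 1 line, so the lost gene and other differences in background cannot be told apart. Cells of both strains were grown in HSM, a minimal salt medium, in light of 25 µmol photons (per square metre and second) to 4 M cells per ml, washed, and resuspended without ammonium at 2 M per ml (M, 10 to the power of 6). Each strain gave 1 library before the wash and 1 at 0, 0.5, 2, 4, 8, 12, 24 and 48 h without nitrogen, then 1 at 0, 0.5, 2, 4, 8, 12, 24 and 48 h after acetate was added to the starved culture (the boost). No culture was sampled at the boost times without acetate, so acetate and further starvation cannot be told apart.

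With 1 library per strain and time point, neighbouring time points were grouped into phases. The replete baseline held the pre-wash and 0 h libraries (2 per strain), early starvation 0.5 to 4 h (3), middle starvation 8 and 12 h (2), late starvation 24 h, 48 h and 0 h of the boost (3), the early boost 0.5 to 4 h (3) and the late boost 8 to 48 h (4). RPKM is relative to the rest of the library, so a change of 1 transcript and an opposite change in total RNA per cell cannot be told apart. The p-values therefore measured the spread between time points of 1 culture series and not between independent cultures. Depth, recovered from the deposited values, was 10.7 to 24.1 M reads in CC-4349 and 5.72 to 53.9 M in sta6, and the 10 loci had 927 to 152480 reads each per library, so counting error was at most 3.28% of a value. The locus used to check the strain labels, Cre03.g188250, was at 100.2 to 304.3 RPKM in CC-4349 and 0.957 to 7.45 RPKM in sta6. The sta6 library at 24 h stood apart for the cycle loci, as described below, and each tested result that rests on it is also given without it.

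**Figure D1:**
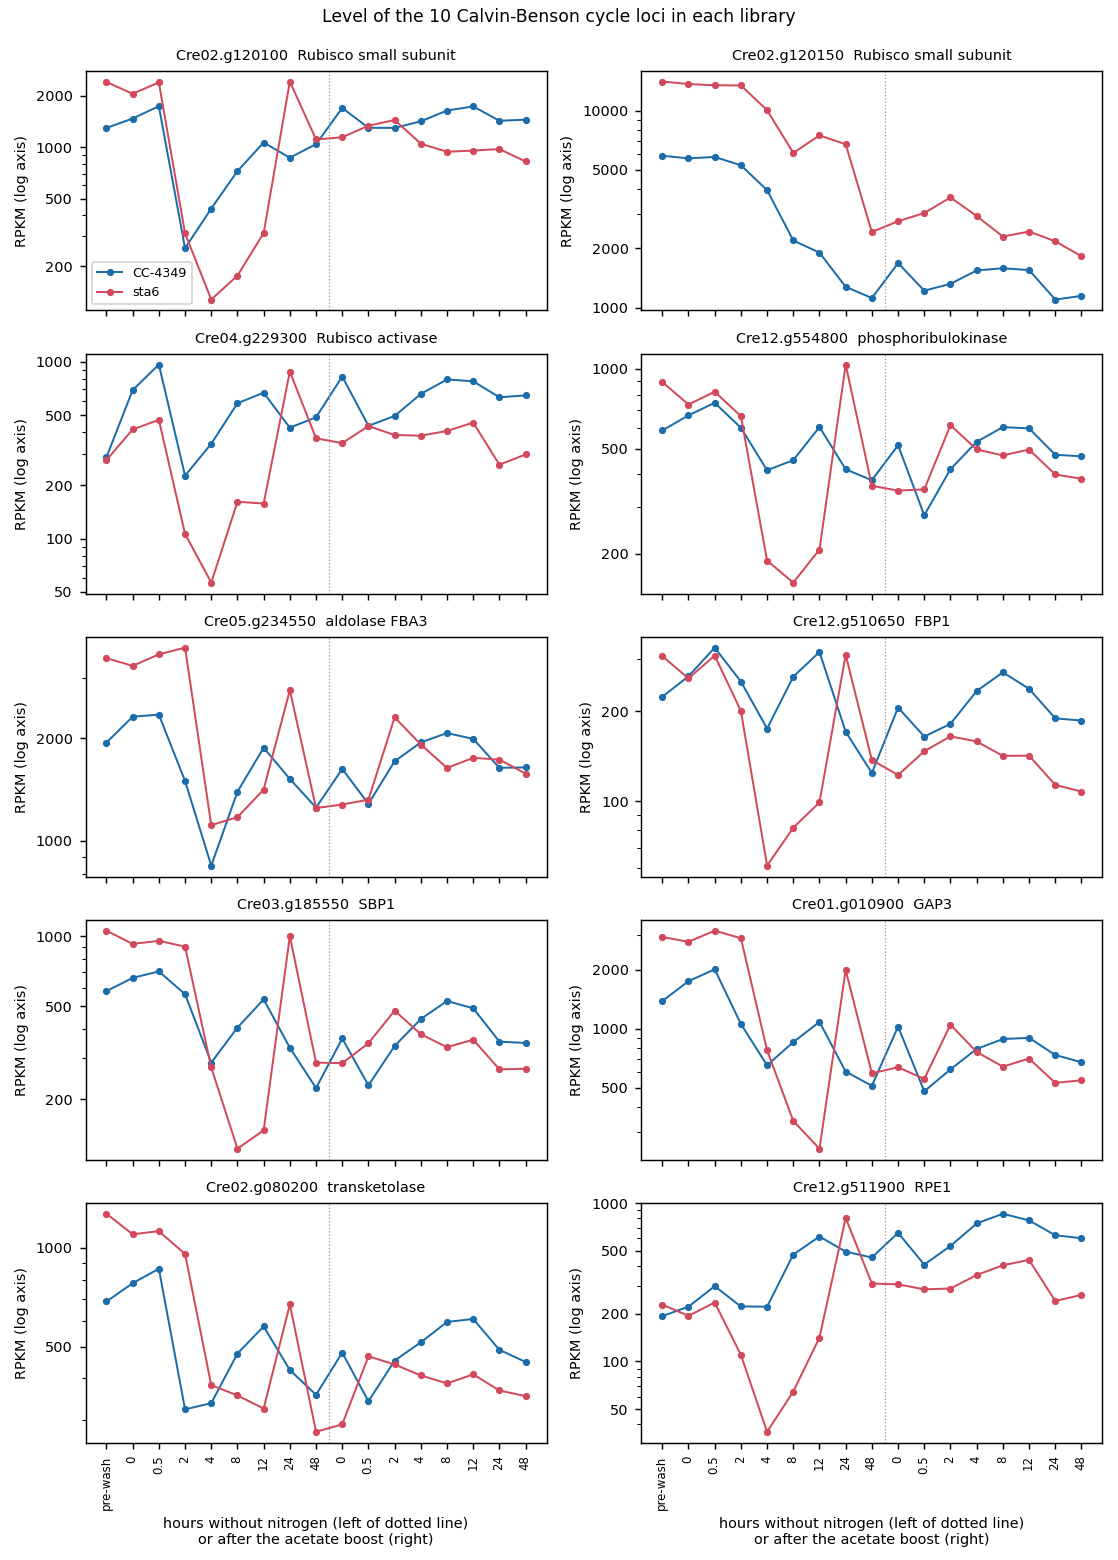
RPKM on a log axis of each of the 10 loci in every library, against time, with CC-4349 in blue and sta6 in red; each point is 1 library and the dotted line marks the acetate boost. In sta6 most loci lie lowest at 4 to 12 h without nitrogen and show a single high point at 24 h, while Cre02.g120150 steps down and is higher in sta6 at all 17 time points.

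Of the 10 loci, 3 to 9 were within the top percent of all loci in a CC-4349 library and 2 to 9 in a sta6 library. Together they made up 0.908% of the summed RPKM of CC-4349 at 48 h without nitrogen and 2.3% at 0.5 h, and 0.917% of sta6 at 48 h of the boost and 3.96% at 0.5 h without nitrogen. Over the 17 libraries of CC-4349 the mean level was highest for Cre02.g120150, at 2608 ± 1881 RPKM (SD, n = 17 time points), followed by FBA3 at 1699 ± 391, Cre02.g120100 at 1228 ± 443 and GAP3 at 943 ± 423. The first place rested on the replete and early libraries, since Cre02.g120150 was above FBA3 at 8 of 17 time points and its median was 1586 RPKM against 1642 RPKM. The order in sta6 had the same first 2 loci, at 6374 ± 4715 and 2066 ± 908 RPKM. FBP1 was the least abundant of the 10 in both strains, at 223 ± 55.0 RPKM in CC-4349 and 168 ± 80.2 in sta6. Some positions between were clear in CC-4349, with GAP3 above activase at 17 of 17 time points and FBA3 above Cre02.g120100 at 15 of 17. Others were not separated: transketolase, phosphoribulokinase and RPE1 had means of 515, 514 and 493 RPKM in CC-4349 with SDs of 118 to 209, and transketolase was above phosphoribulokinase at 9 of 17 time points.

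The Rubisco small subunit partners the large subunit encoded in the chloroplast and is needed to assemble the enzyme. Its 2 loci are next to each other in the order of the RefSeq gene table, and they did not follow the same course. Their recovered model lengths were 766 bases for Cre02.g120100 and 230 bases for Cre02.g120150. The 2 small subunit genes of this alga are known as near-identical copies, and the counting rule is not given in the sources used here, so the split of reads between them is uncertain.

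Cre02.g120150 was at 5903 and 5722 RPKM in the replete libraries of CC-4349 and at 14038 and 13633 RPKM in those of sta6. During early starvation it stood at 5821, 5280 and 3948 RPKM in CC-4349 and at 13434, 13417 and 10045 RPKM in sta6. At 8 and 12 h it was at 2194 and 1903 RPKM in CC-4349 and at 6099 and 7485 RPKM in sta6. The level thus stepped down after 4 h in each strain, and stayed below every replete value of that strain at all later times. By 48 h it was at 1120 RPKM in CC-4349 and 2422 RPKM in sta6, 5.27-fold and 5.8-fold below the pre-wash library of the same strain. In sta6 this locus had the highest RPKM of the whole table from pre-wash to 12 h, and in CC-4349 its best rank was 4, at 0.5 h and 2 h.

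Cre02.g120100 behaved as a trough with a recovery. In CC-4349 it was at 1741 RPKM at 0.5 h and 256 RPKM at 2 h, 6.81-fold lower, and then at 437, 724 and 1066 RPKM at 4, 8 and 12 h. In sta6 it was at 2401 RPKM at 0.5 h, 312 RPKM at 2 h, 128 RPKM at 4 h, 176 RPKM at 8 h and 313 RPKM at 12 h, and the pre-wash level was 18.9 times the lowest. The trough was deeper and longer in sta6, whose value at 24 h was 2429 RPKM against 868 RPKM in CC-4349. After the boost it lay between 1298 and 1736 RPKM in CC-4349 and between 825 and 1445 RPKM in sta6, counting from 0.5 h.

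The ratio of Cre02.g120150 to Cre02.g120100, in RPKM and so per length, before the wash was 4.55 in CC-4349 and 5.82 in the mutant. Its peak was 20.7 in CC-4349, at 2 h, and 78.6 in sta6, at 4 h. In CC-4349 the ratio was 1.07 at 48 h and 0.77 to 1.09 throughout the boost, and in sta6 it was 2.18 at 48 h and 2.21 to 2.78 from 0.5 h of the boost on. The 2 loci were thus near equal in late CC-4349 cultures, whereas Cre02.g120150 remained above its neighbour in every sta6 library. Their summed level before the wash was 7201 RPKM in CC-4349 and 16450 RPKM in sta6, and 2164 and 3533 RPKM at 48 h.

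**Figure D2:**
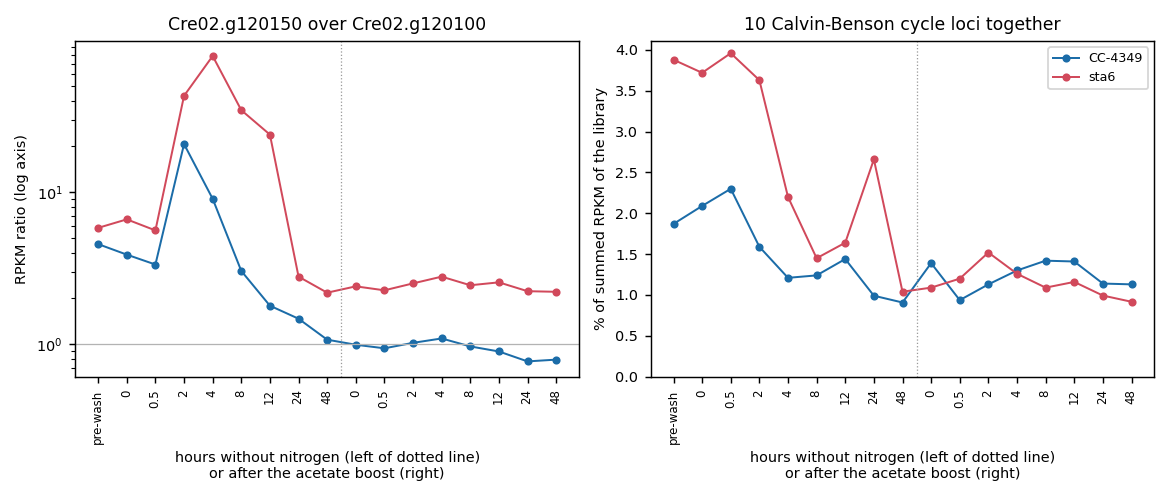
Left, ratio of the 2 Rubisco small subunit loci in each library on a log axis, with a grey line at equality; right, share of the summed RPKM held by the 10 loci together, in percent. The ratio peaks at 20.7 in CC-4349 (2 h) and 78.6 in sta6 (4 h), and the share in sta6 is 3.96% at 0.5 h, then 1.45% (8 h), 2.66% (24 h) and 1.04% (48 h).

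Rubisco activase removes inhibitory sugar phosphates from Rubisco. Its level before the wash was alike in the strains, at 289 RPKM in CC-4349 and 278 RPKM in sta6, and at 0 h, after the wash, it was at 692 and 415 RPKM. This made it the only one of the 10 loci at least 2-fold higher at 0 h than before the wash in CC-4349, at 2.4-fold, where 3.06% of all loci were. It then dropped with Cre02.g120100 between 0.5 and 2 h, being at 964 and then 227 RPKM in CC-4349, and at 470 and then 107 RPKM in sta6. The lowest sta6 value was 56.4 RPKM at 4 h, and the highest was 880 RPKM at 24 h. In CC-4349 activase was at 583 and 668 RPKM at 8 and 12 h, above both sta6 values of 162 and 158 RPKM.

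Phosphoribulokinase makes the acceptor ribulose bisphosphate and is used by this cycle alone. In CC-4349 its values without nitrogen lay between 380 RPKM, at 48 h, and 744 RPKM, at 0.5 h, with 414 RPKM at 4 h. In sta6 it was at 892 RPKM before the wash and 663 RPKM at 2 h, and then at 188, 156 and 207 RPKM at 4, 8 and 12 h. The sta6 pre-wash level was 5.73 times the lowest value without nitrogen, and the same quantity was 1.54 in CC-4349.

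GAP3, the glyceraldehyde 3-phosphate dehydrogenase that performs the reduction step, had the deepest trough of sta6 relative to the pre-wash level among the reduction and regeneration enzymes. It was at 2930 and 2771 RPKM in the 2 replete sta6 libraries, at 3155, 2890 and 778 RPKM at 0.5, 2 and 4 h, and at 340 and 246 RPKM at 8 and 12 h. In CC-4349 the replete values were 1385 and 1747 RPKM and those at 8 and 12 h were 856 and 1084 RPKM. Before the wash sta6 had 2.12 times the level of CC-4349, and at 12 h CC-4349 had 4.41 times the level of sta6.

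SBP1, the sedoheptulose bisphosphatase of the regeneration phase, followed GAP3. It was at 1056 and 927 RPKM in replete sta6 and at 122 and 147 RPKM at 8 and 12 h, while CC-4349 had 581 and 663 RPKM replete and 405 and 536 RPKM at 8 and 12 h. The middle values of sta6 lay below every CC-4349 value of the series, the lowest of which was 223 RPKM at 48 h. FBP1, the fructose bisphosphatase, was at 306 and 258 RPKM in replete sta6, 61.0 RPKM at 4 h and 81.7 and 99.3 RPKM at 8 and 12 h. In CC-4349 FBP1 was higher at 12 h, with 316 RPKM, than in either replete library, with 224 and 262 RPKM.

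The aldolase FBA3 and transketolase, which join and rearrange the sugar phosphates, had the smallest ranges of the 10 in sta6, with 3.31-fold and 4.61-fold between the lowest and the highest library. FBA3 was at 3432, 3258, 3520 and 3684 RPKM in sta6 from pre-wash to 2 h and at 1112 RPKM at 4 h. In CC-4349 it was at 1941 RPKM before the wash, 846 RPKM at 4 h and 1875 RPKM at 12 h. Transketolase was at 1268 and 1098 RPKM in replete sta6 and at 355 and 324 RPKM at 8 and 12 h. Its CC-4349 values were 686 and 779 RPKM replete, 322 RPKM at 2 h and 476 and 576 RPKM at 8 and 12 h.

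RPE1, the ribulose phosphate epimerase, had a course of its own in CC-4349. It was at 193 and 222 RPKM replete, at 298, 222 and 222 RPKM in early starvation, at 473 and 614 RPKM at 8 and 12 h, and at 493, 453 and 649 RPKM in late starvation. All middle and late values lay above all replete and early values. In sta6 RPE1 was at 228 and 194 RPKM replete, 110, 36.0, 64.5 and 142 RPKM at 2, 4, 8 and 12 h, and 805, 310 and 307 RPKM in late starvation. The 2 strains thus moved in opposite directions from the baseline at 8 and 12 h, and both lay above their baseline in late starvation.

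**Figure D3:**
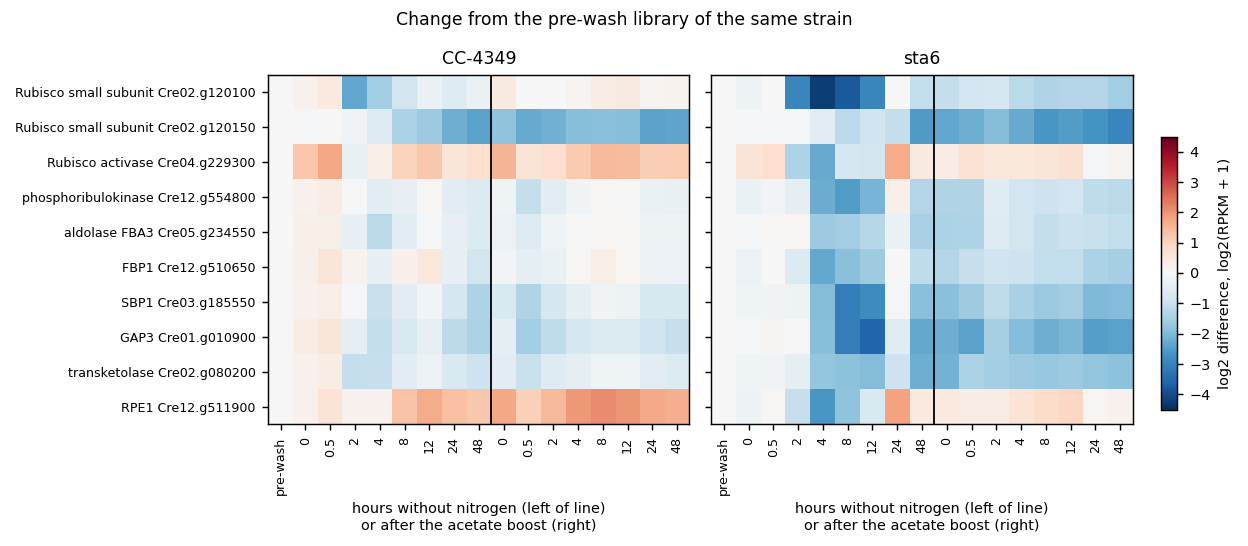
Change of each locus from the pre-wash library of the same strain, as a log2 difference of RPKM + 1, with time from left to right and the boost at the black line; blue is lower and red is higher. The sta6 panel is bluest at 4 to 12 h, down to -4.23 for Cre02.g120100 at 4 h. It is mostly pale at 24 h, where activase and RPE1 are red and Cre02.g120150 is blue. In CC-4349 RPE1 is reddest from 8 h on, while activase is reddest at 0.5 h and red again from 8 h on.

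Single libraries gave 4 steps that several of the loci took together, described without a test. Between 0.5 and 2 h 3 of 10 loci were at least 2-fold lower in each strain, where 8.12% of all loci were in CC-4349 and 9.63% in sta6. Cre02.g120100 and activase were among the 3 in both, with transketolase in CC-4349 (2.68-fold) and RPE1 in sta6 (2.14-fold). Between 2 and 4 h without nitrogen 8 of 10 loci were at least 2-fold lower in sta6, where 2.32% of all loci were. The median log2 difference of the 10 was -1.65, and the 2 loci short of 2-fold were activase, at 1.89-fold lower, and Cre02.g120150, at 1.34-fold lower. The depth of the sta6 libraries moved with this step, from 5.72 M reads at 2 h to 35.2 M at 4 h, and its part in the result was not tested. CC-4349 had 0 of the 10 past 2-fold at this step, where 1.58% of all loci were lower. Against the pre-wash library, 9 of 10 were at least 2-fold lower at 4 h in sta6 and 5 of 10 in CC-4349, where 7.99% and 5.95% of all loci were.

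Between 12 and 24 h 8 of 10 loci were at least 2-fold higher in sta6, where 5.66% of all loci were, with a median log2 difference of 2.39. GAP3 was 8.1-fold higher, Cre02.g120100 7.75-fold, SBP1 6.81-fold, RPE1 5.69-fold, activase 5.57-fold and phosphoribulokinase 5-fold. FBA3 was 1.95-fold higher and Cre02.g120150 was at 7485 and then 6748 RPKM. Between 24 and 48 h all 10 were at least 2-fold lower, where 1.98% of all loci were, and the median log2 difference was -1.33. In CC-4349 the step from 12 to 24 h had 0 of the 10 past 2-fold and a median of -0.55, where 0.723% of all loci were higher and 2.2% lower. Its step from 24 to 48 h had 0 as well, with a median of -0.21, where 1.36% were higher and 1.16% lower.

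The sta6 24 h library therefore held 9 of the 10 loci within the top percent of all loci, against 2 at 12 h and 4 at 48 h. Across loci, which are not independent replicates, its log2 levels correlated best with sta6 libraries of the boost, at r = 0.975 with 4 h and 0.974 with 8 h, and at r = 0.964 with 48 h, 0.911 with 12 h and 0.807 with the pre-wash library. There is 1 library at this time, so a feature of the cells at 24 h and a feature of the library cannot be told apart.

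The phase comparisons used limma on log2(RPKM + 1), fitted over all 14513 loci, and a locus was called when its Benjamini-Hochberg adjusted p was under 0.05 and its difference at least 2-fold. The starvation comparisons all share the replete libraries, and the boost comparisons share the late starvation libraries, so they are not independent of each other. Over all loci the median log2 difference was 0.23 in early, 0.24 in middle and 0.26 in late starvation on the deposited scale and 0.04, 0.01 and 0.01 after median-of-ratios scaling. Differences of the cycle loci moved lower by about this shift with that scaling.

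In early starvation Cre02.g120100 fell, by 1.77 on the log2 scale (SE 0.50, limma adjusted p = 0.00602). It was the only one of 10 called, where 12.1% of all loci were called and 4.73% were called lower. Its fall rested on the 2 h and 4 h libraries, since at 0.5 h it was at or above the replete mean in both strains. Transketolase had a log2 difference of -0.68 (SE 0.27, limma adjusted p = 0.0394), under 2-fold. Its highest limma adjusted p over the alternative settings was 0.167, without the 0 h and boost 0.5 h libraries. The estimates of the 8 others ran from -0.67 to -0.21, and limma's adjusted p was above 0.05 for each. When the post-wash 0 h and the boost 0.5 h libraries were left out, the call of Cre02.g120100 was lost, at -1.78 with a limma adjusted p of 0.0616. Without the sta6 library at 0.5 h activase was called as well, at -1.10 with a limma adjusted p of 0.00776.

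The middle phase was added as a comparison after the data had been seen. In it 6 of 10 loci were called, all lower, where 19.6% of all loci were called and 6.46% called lower, and the median over the 10 was -1.17 against 0.24 over all loci. GAP3 fell by 1.99 on the log2 scale (SE 0.38, limma adjusted p = 0.00011). Cre02.g120100 fell by 1.95, SBP1 by 1.64, Cre02.g120150 by 1.27, phosphoribulokinase by 1.21 and transketolase by 1.14, with limma adjusted p from 2.22e-05 to 0.00456. FBA3 had -0.88 with a limma adjusted p of 0.0179, under 2-fold. Its highest limma adjusted p over the alternative settings was 0.086, without the 0 h and boost 0.5 h libraries. For FBP1, activase and RPE1 the estimates were -0.69, -0.30 and 0.12, with limma adjusted p of 0.0771, 0.602 and 0.805.

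These averages combined unlike values of the strains, as the per-strain levels show. For GAP3 the replete mean of 1566 ± 256 RPKM (SD, n = 2) in CC-4349 was followed by 970 ± 162, and that of 2850 ± 113 in sta6 by 293 ± 66.8. Phosphoribulokinase had 626 ± 58.3 and then 527 ± 107 RPKM in CC-4349, beside 812 ± 112 and then 182 ± 36.7 in sta6. FBP1 was at 243 ± 27.0 and 289 ± 38.8 RPKM in CC-4349 and at 282 ± 34.1 and 90.5 ± 12.4 in sta6. The difference between the strains in this change was tested, also as an addition, and ran from -2.61 for GAP3 to 0.47 for Cre02.g120150. It was called for 0 of 10 loci, where 0.482% of all loci were called. An unadjusted limma p under 0.05 was found for 7 of 10, beside 1501 of all 14513 loci. The lowest limma adjusted p among the 10 was 0.150, for SBP1, with a 95% interval of -3.94 to -0.98. The call depended on the model. With time point as a random block 6 of 10 were called lower, among them SBP1 (limma adjusted p = 0.00291) and GAP3 (limma adjusted p = 0.00443). Of all 14513 loci that model called 824 in either direction, against 70.

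In late starvation 5 of 10 loci were called, 4 lower and 1 higher, where 29.9% of all loci were called, 18.4% higher and 11.5% lower. Cre02.g120150 fell by 2.04 on the log2 scale (SE 0.19, limma adjusted p = 1.51e-09). Its late values were 1277, 1120 and 1685 RPKM in CC-4349 and 6748, 2422 and 2747 RPKM in sta6, with no overlap with the replete values of the same strain. GAP3 fell by 1.42 (SE 0.35, limma adjusted p = 0.000928), transketolase by 1.23 (SE 0.27, limma adjusted p = 0.000262) and SBP1 by 1.12 (SE 0.33, limma adjusted p = 0.00435). Their late values in CC-4349 lay below the replete ones, and in sta6 the 24 h value of SBP1, 1001 RPKM, overlapped with the replete pair.

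RPE1 rose by 1.17 on the log2 scale (SE 0.34, limma adjusted p = 0.00392). Its late values lay above the replete ones in both strains. FBA3 had -0.78 with a limma adjusted p of 0.0157, under 2-fold. Its highest limma adjusted p over the alternative settings was 0.0879, without the 0 h and boost 0.5 h libraries. Cre02.g120100, activase, phosphoribulokinase and FBP1 had estimates of -0.44, 0.41, -0.60 and -0.63, with limma adjusted p from 0.0646 to 0.452. The median over the 10 loci was -0.71 against 0.26 over all loci. Without the sta6 24 h library 4 of 10 were called, all lower, and the call of RPE1 was lost at 0.94 (limma adjusted p = 0.0155). Then Cre02.g120150 fell by 2.27, GAP3 fell by 1.70, transketolase fell by 1.43 and SBP1 fell by 1.42.

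The call of SBP1 also depended on the 48 h and boost 0 h libraries of sta6, at -0.97 without the one or the other. The late change was not shown to differ between the strains. Its strain difference ran from -0.83 to 0.20 over the 10 loci with 0 called, where 2.86% of all loci were called, and from -1.25 to -0.23 with 0 called without the sta6 24 h library. None of the 10 had an unadjusted limma p under 0.05 in that test with all libraries, beside 2081 of all 14513 loci.

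**Figure D4:**
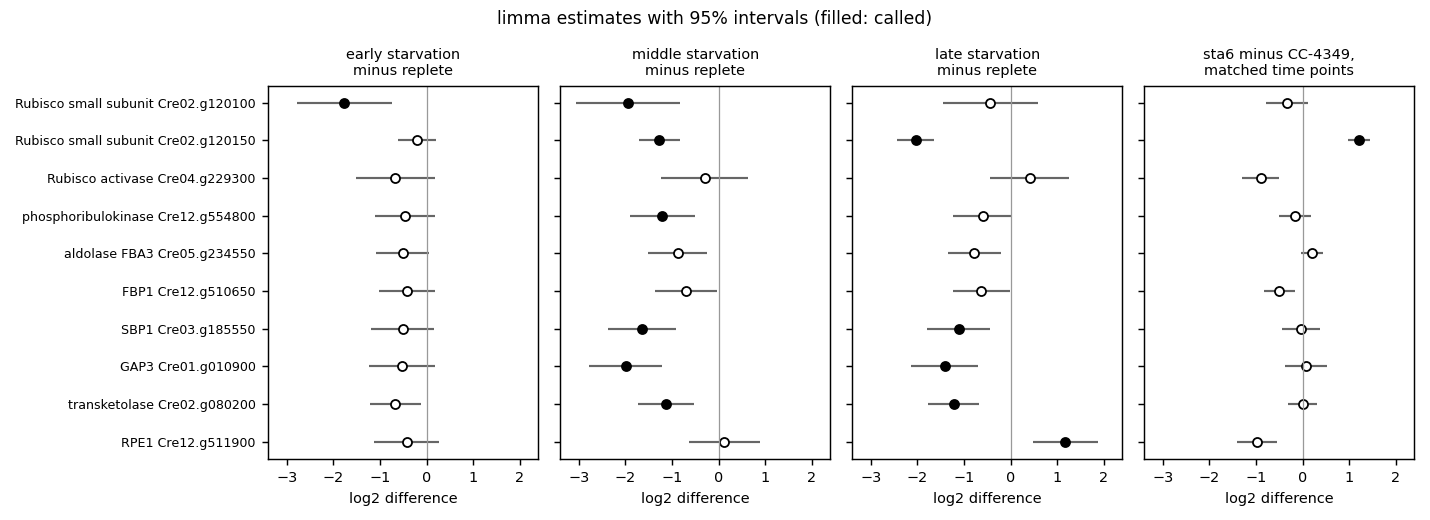
Log2 differences estimated by limma with 95% intervals for the 10 loci in early, middle and late starvation against the replete baseline and between the strains at matched time points; filled points were called. Small subunit Cre02.g120100 is called in early and middle starvation, Cre02.g120150 in middle and late starvation and between the strains, and RPE1 is the one locus called higher in late starvation.

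After acetate was added the cycle loci stayed near their late starvation level. The early boost gave differences of -0.21 to 0.14 on the log2 scale with 0 of 10 called, where 1.28% of all loci were called. An unadjusted limma p under 0.05 was found for 0 of 10, beside 3679 of all 14513 loci. The late boost gave -0.36 to 0.18 with 0 called, where 0.579% of all loci were called. There 1 of 10, Cre02.g120150 at -0.36, had an unadjusted limma p under 0.05, beside 2047 of all 14513 loci. The widest 95% interval of the early boost, that of Cre02.g120100, ran from -0.91 to 0.92. Without the sta6 24 h library the early boost differences were 0.02 to 0.34, again with 0 called, and those of the late boost were -0.13 to 0.38, also with 0 called.

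The CC-4349 library at 0 h of the boost had all 10 loci above the 48 h library, by 0.38 to 1.0 on the log2 scale. The median of that rise was 0.65, beside 0.0 over all loci. From 0 h to 0.5 h of the boost all 10 loci were lower in CC-4349, with a median log2 difference of -0.58 beside -0.34 over all loci. GAP3, from 1026 to 481 RPKM, was the 1 locus past 2-fold, where 17.1% of all loci were lower. With median-of-ratios scaling this step had a median of -0.14 and a highest value of 0.11 for the 10 loci, and 0 of them past 2-fold. Against 48 h without nitrogen, the 0.5 h values lay on both sides. GAP3 was at 513 and then 481 RPKM, and Cre02.g120100 at 1043 and then 1301 RPKM. All 10 stood higher in CC-4349 at 8 h than at 0.5 h, with phosphoribulokinase at 602, FBP1 at 270, SBP1 at 527 and RPE1 at 856 RPKM. In sta6 both small subunits, phosphoribulokinase, GAP3, FBA3, FBP1 and SBP1 had their highest level after the boost at 2 h, FBA3 with 2302 and SBP1 with 480 RPKM, against 1279 and 285 RPKM at 0 h. The strain difference of the early boost change ran from -0.52 to 0.17 with 0 of 10 called, where 0.00689% of all loci were called. An unadjusted limma p under 0.05 was found for 0 of 10, beside 374 of all 14513 loci. The direction of the median of this strain difference rested on the sta6 24 h library. The median was -0.18 with that library and 0.32 without it, when the range was -0.06 to 0.59, again with 0 called.

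Between the strains at matched time points 1 of 10 loci was called, where 5.83% of all loci were called and 2.76% called higher in sta6. It was Cre02.g120150, whose sta6 level exceeded that of CC-4349 at 17 of 17 time points, by 1.21 on the log2 scale (SE 0.11, limma adjusted p = 2.36e-08). The difference was smallest at 8 h of the boost, at 0.53, and largest at 24 h without nitrogen, at 2.4. RPE1 was lower in sta6 at 15 of 17 time points (log2 difference -0.98, limma adjusted p = 0.000621) and activase at 16 of 17 (-0.90, limma adjusted p = 0.000697), both just under 2-fold. FBP1 was lower in sta6 at 14 of 17 (-0.51, limma adjusted p = 0.0136). For FBP1 the limma adjusted p was 0.158 with phase means as 6 pairs and 0.0528 without the time point block. The 6 others had estimates between -0.34 and 0.20 with limma adjusted p above 0.05. Without the 24 h library of either strain 3 loci were called, RPE1 at -1.09 and activase at -1.02 joining Cre02.g120150 at 1.14.

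An average over time hid opposite differences between the strains. The median log2 difference of the 10 loci was 0.84 before the wash, with 9 of 10 higher in sta6. At 8 h it was -1.60 and at 12 h -1.71, with 9 of 10 lower each time, whereas the 24 h value was 1.18, with all 10 higher. At 48 h the strains were level, with a median of 0.04 and 5 loci on each side. From 8 h of the boost on the medians lay between -0.64 and -0.36, with 8 or 9 of 10 lower in sta6. These are single libraries of each strain, so the differences at a time point have no replicate and were not tested. They were not set beside the differences of all loci at the same time points, so a shift shared with other loci was not tested.

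**Figure D5:**
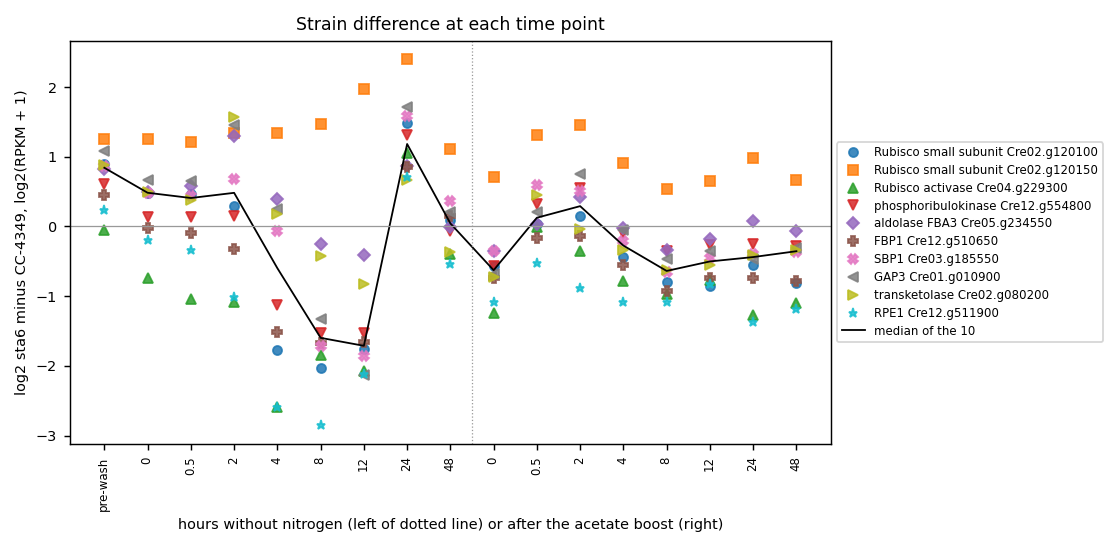
Log2 difference of RPKM + 1 between sta6 and CC-4349 for each of the 10 loci at each time point, with the median as a black line; values above 0 are higher in sta6 and each point compares 1 library of each strain. Cre02.g120150 stays above 0 throughout, while the median passes from 0.84 before the wash to -1.71 at 12 h, 1.18 at 24 h and -0.36 at 48 h of the boost.

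Correlations over the 17 libraries of a strain are given for a set of 6 loci chosen by hand, without clustering. A high r within that set is therefore no evidence of a group. Phosphoribulokinase, FBP1, SBP1, GAP3, FBA3 and transketolase correlated with each other at a median Pearson r of 0.81 in CC-4349 (0.66 to 0.95) and 0.90 in sta6 (0.74 to 0.97), on log2 levels. These points share libraries and time points of 1 culture series, and the values are a description. Over all 45 pairs of the 10 loci the median was 0.60 and 0.64, with lowest values of -0.83 and -0.47, both between Cre02.g120150 and RPE1. In sta6 RPE1 was closest to activase, at r = 0.92, and to Cre02.g120100, at 0.81. Cre02.g120100, outside the set of 6, had r = 0.81 with both phosphoribulokinase and FBP1 in sta6, and 0.16 and 0.09 in CC-4349. Against the mean standardized profile of the 10 over all 34 libraries, phosphoribulokinase had r = 0.954, SBP1 0.931 and FBP1 0.908, and RPE1 0.425 and Cre02.g120150 0.272.

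Of all other loci, the 5 most like that mean profile over the 34 libraries were Cre11.g476750 (r = 0.913), Cre12.g558900 (0.906), Cre03.g187450 (0.897), Cre01.g042800 (0.869) and Cre12.g546050 (0.869). The sources used here do not annotate them. Their mean levels were 269, 162, 115, 23.2 and 41.1 RPKM, below those of most of the 10 loci. Cre03.g187450 is also on the further list of loci linked to the cycle, taken up next.

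A further list of 12 loci linked to the cycle from general knowledge had 11 in the table, all of which entered the tests. In early starvation 1 of 11 was called, Cre03.g187450, which fell by 1.67 on the log2 scale (limma adjusted p = 0.00997), where 12.1% of all loci were called. In middle starvation Cre03.g187450 and Cre10.g436550 fell, by 2.14 and 1.57, and Cre12.g485150 rose by 1.97, so that 3 of 11 were called, where 19.6% of all loci were. In late starvation 3 of 11 were called lower and 1 higher, Cre12.g485150, by 1.37, where 11.5% of all loci were called lower and 18.4% higher. The median over the 11 was -0.24 in early, -0.42 in middle and -0.36 in late starvation. Between the strains 1 of 11 was called, Cre10.g436550, higher in sta6 by 1.59 (limma adjusted p = 5.41e-06), where 5.83% of all loci were called. In the early boost 1 of 11 was called, Cre01.g032650, which rose by 1.14 (limma adjusted p = 0.0112), where 1.28% of all loci were called. In the late boost 0 of 11 were called, with 0 at an unadjusted limma p under 0.05, beside 2047 of all 14513 loci.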

How the data were processed

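The deposited table gave 1 value per locus and library. The authors' unit is not named in it, and the deposited values were taken as RPKM because they resolve into whole reads over whole model lengths. Totals came from 2448 loci, and in 424 of 424 sampled loci the values gave whole reads within 0.1 reads. Reads were aligned with Bowtie, per the submitters' processing notes; version, build, annotation, counting rule and strand setting were not stated.

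Levels were compared as log2(RPKM + 1), so fold changes of low values are understated, for loci with a mean of at least 1. limma 3.58.1 in R 4.3.3, with empirical Bayes trend, fitted 12 strain-by-phase groups together, with 22 residual degrees of freedom. The strain difference used time point as a fixed block. On simulated data for 14513 loci, 100 of 100 loci changed by 3 on the log2 scale were called in late starvation. In the strain difference of middle starvation 90 of 100 were. Of those changed by 1.5, 97 and 51 of 100 were called, and 50 of 100 in the strain difference of late starvation. False calls were 4, 5 and 9 in the same order. Simulated libraries varied independently and only 100 loci changed at each size, so these rates can differ from those in the real data, where same-time libraries were correlated. Tables used Python 3.11.15 with pandas 2.3.3.

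The 10 loci and the further list were chosen with earlier results of these data known. The 10 loci were tested under each comparison, and those not named beside a result stand in its range; called loci of the further list are named where 3 or fewer, and the nearest loci are the 5 with the highest r. Alternatives were other pseudocounts, filters and scalings, a time point block, and leaving out libraries. Gene order was read from a RefSeq table. Sequences were not used here.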

Additional observations from a re-analysis of the deposited data

How the results depend on the processing

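Every starvation comparison rests on 2 or 3 time points per strain, and leaving out 1 library in turn gave 1 to 3 of 10 cycle loci called between the strains, 1 to 2 in early starvation, 4 to 5 in late starvation and 6 throughout in middle starvation. Without the 0 h and boost 0.5 h libraries, whose scaling factors of 0.79 to 0.89 were low beside most others, 2 loci were called between the strains and 0 in early starvation. With phase means as 6 pairs 2 were called between the strains, RPE1 joining at -1.0 (limma adjusted p = 0.0487). RPE1 passed 2-fold there in other settings too.

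Scaling mattered for single calls, and the cause was not tested. With median-of-ratios scaling RPE1 was no longer called in late starvation (0.87, limma adjusted p = 0.0339), and FBA3 was called there (-1.09) and in middle starvation (-1.17), where 7 of 10 were then called. That scaling moved the split of all called loci from 2675 higher and 1665 lower to 1882 and 2263 in late starvation, from 1071 and 687 to 667 and 1109 in early starvation, and from 1910 and 938 to 1305 and 1423 in middle starvation. With quantile normalization SBP1 (-0.27, limma adjusted p = 0.418) and transketolase (-0.36, limma adjusted p = 0.172) were no longer called in late starvation, activase was called (1.05), Cre02.g120150 was under 2-fold between the strains (0.94), and in middle starvation Cre02.g120150 (-0.64), phosphoribulokinase (-0.67) and transketolase (-0.61) were under 2-fold while FBA3 was called (-1.15), leaving 4 of 10 against 6. With that normalization 1 locus, GAP3 at -3.53, was called for the strain difference of middle starvation. No tested value of a cycle locus whose limma adjusted p was under 0.05 changed sign in any alternative run.

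With time point fitted as a random replicate block (consensus correlation 0.528) the strain difference of middle starvation was called lower for 6 of 10 loci, against 0 without it, and called in either direction for 824 of all loci, against 70. GAP3 had -2.61 (limma adjusted p = 0.00443), SBP1 -2.46, RPE1 -2.51, FBP1 -1.88, phosphoribulokinase -1.90 and Cre02.g120100 -2.58. The labels match the strains by time point, which is why the strain difference had it as a fixed block, but do not say that same-time samples shared a batch. Deviations of same-time libraries correlated at -0.10 to 0.72, and not every pair was above 0.1. The block changed no other count of called cycle loci, and moved the counts over all loci to 1088 from 415 for the strain difference of late starvation, to 47 from 84 for the late boost and to 26 from 1 for that of the early boost. Without the time point block the strain difference gave 749 against 846.

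Over the alternatives other than leaving out 1 library, the counts over all loci ran from 366 to 1387 between the strains, 759 to 2863 in early, 1476 to 3867 in middle and 2174 to 5487 in late starvation, 50 to 535 in the early and 33 to 143 in the late boost, and from 171 to 1088, 49 to 824 and 0 to 26 for the strain difference of late starvation, middle starvation and the early boost, with extremes mostly at pseudocounts of 5 and 0.1. Leaving out 1 library gave 223 to 755 for the strain difference of late starvation and 13 to 138 for that of middle starvation, with 1380 to 2589 in early starvation.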
